A study of Homo sapiens and Mus musculus with 6 samples.

Results

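The replication-dependent histone genes were followed through the promoter Capture Hi-C (CHi-C) calls of GM12878, a human lymphoblastoid cell line, and of mouse ES cells (mESC, the J1 line of strain 129S4/SvJae). The labels name no treatment or genotype for either. In CHi-C, a Hi-C library cut with HindIII is enriched for baited fragments that carry gene promoters, and the CHiCAGO algorithm gives each pair of a bait and another fragment (the other end) a score, which is called at 5 or more. A bait was counted as a histone bait if one of its listed gene symbols began, in either case, with HIST1H, HIST2H, HIST3H or HIST4H, pseudogenes of these families included. In GM12878 cells this held for 46 of 16616 named baits, which carried 73 histone symbols and 1663 of 92929 calls (1.79%). In mESCs it held for 35 of 17157 named baits, with 35 histone symbols and 912 of 101841 calls. A bait is named only if it stands at an end of a call. Captured baits without any call are therefore missing from all counts and shares.

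The calls of GM12878 were made on 3 biological replicates at once and those of mESC on 2, so that each cell type is 1 set of calls. No replicate spread could be computed for any value and no test was made. Percentages are given with exact Clopper-Pearson 95% intervals, which cover counting error only. Pairs that share a bait are not independent of each other, nor are calls to fragments side by side. The human list can name several genes of a bait, and the mouse list names 1 gene per bait. Species, cell type, sequencing depth and naming therefore cannot be told apart where both cell types are set side by side. Listed names can differ from the annotation, which starts HIST1H3B on the bait listed as HIST1H2AB. The read count listed for a call is a weighted mean over the replicates, and the listed read counts of all calls summed to 1850002 in GM12878 and 2010332 in mESCs.

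Replication-dependent histone genes make the core histones H2A, H2B, H3 and H4 and the linker histone H1 that package newly copied DNA in S phase. They are short, intronless genes that lie in tandem and divergent arrays, and their mRNAs end in a stem-loop in place of a poly(A) tail. Their transcription and mRNA processing take place at histone locus bodies, nuclear structures built on the coactivator NPAT.

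The human HIST1 baits lay in 3 sub-clusters on chromosome 6, taken as runs with gaps of under 300 kb. In hg19 coordinates these were 25726466 to 26288843 with 25 baits, 27099102 to 27115524 with 3 baits and 27770375 to 27864923 with 12 baits. The mouse HIST1 baits lay on chromosome 13, in mm9 coordinates from 21807357 to 22135014 (8 baits) and from 23609299 to 24027277 (19 baits), apart from Hist1h2al alone at 51296634 to 51298638. Outside HIST1, GM12878 had 4 HIST2 baits and 1 HIST3 bait on chromosome 1 and 1 HIST4 bait on chromosome 12. The mESC list had 5 HIST2 baits on chromosome 3, 1 HIST3 bait on chromosome 11 and 1 HIST4 bait on chromosome 6. All 46 human and all 35 mouse fragments ran between adjacent AAGCTT sites of their genome build.

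In GM12878, genes of several types often shared a fragment. By the listed symbols, 25 of the 46 baits carried genes of 1 type and 21 genes of 2 or more types. Examples are divergent H2A and H2B genes that start from the same stretch of DNA. H1 symbols stood on 7 baits, H2A on 19, H2B on 20, H3 on 10 and H4 on 14. Among the mESC baits, 4 were named for H1, 9 for H2A, 7 for H2B, 5 for H3 and 10 for H4.

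The promoters at both ends of the highest-scoring histone contact of each cell type are shown first, with 2 others for contrast. HIST1H2AH and HIST1H2BK start back to back on the GM12878 bait with the most calls of all baits, and the 250 bases between their starts are given on the plus strand (hg19, chr6:27114635-27114884). HIST1H2AA and HIST1H2BA, the testis pair of the family, also start back to back, and their bait had no histone partner (hg19, chr6:25726791-25727004, plus strand). HIST1H3H (chr6:27777679-27777828, plus strand) and HIST1H4I (chr6:27106911-27107060, plus strand) were the best-scoring partners of the HIST1H2AH bait, and the 150 bases before their starts are given. The mouse sequences are the 150 bases before the starts of Hist1h3e (mm9, chr13:23654239-23654388, minus strand) and Hist1h2bg (mm9, chr13:23663115-23663264, plus strand). The latter contains a HindIII site, so that most of it lies on the neighbouring Hist1h2ae fragment. Capitals mark 3 motifs searched on both strands: the TATA box TATAAA, the CCAAT box CCAAT and the octamer ATTTGCAT, which the POU factors bind.
HIST1H2AH and HIST1H2BK: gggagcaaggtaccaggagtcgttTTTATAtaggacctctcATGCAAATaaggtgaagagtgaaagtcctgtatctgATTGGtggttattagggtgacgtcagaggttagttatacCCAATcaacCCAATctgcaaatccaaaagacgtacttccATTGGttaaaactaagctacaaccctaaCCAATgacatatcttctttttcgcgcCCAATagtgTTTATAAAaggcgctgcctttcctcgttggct
HIST1H2AA and HIST1H2BA: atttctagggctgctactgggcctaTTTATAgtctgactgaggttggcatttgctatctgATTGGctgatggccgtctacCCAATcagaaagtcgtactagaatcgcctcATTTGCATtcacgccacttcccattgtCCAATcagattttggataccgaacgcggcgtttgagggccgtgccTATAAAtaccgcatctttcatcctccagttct
HIST1H3H: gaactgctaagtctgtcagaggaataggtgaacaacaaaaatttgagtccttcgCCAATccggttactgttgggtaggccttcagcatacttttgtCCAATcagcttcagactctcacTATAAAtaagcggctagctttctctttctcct
HIST1H4I: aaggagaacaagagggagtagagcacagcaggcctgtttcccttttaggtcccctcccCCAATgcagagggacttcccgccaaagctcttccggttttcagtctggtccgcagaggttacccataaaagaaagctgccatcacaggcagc
Hist1h3e: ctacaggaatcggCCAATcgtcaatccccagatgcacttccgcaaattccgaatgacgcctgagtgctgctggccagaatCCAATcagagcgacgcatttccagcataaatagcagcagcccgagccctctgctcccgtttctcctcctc
Hist1h2bg: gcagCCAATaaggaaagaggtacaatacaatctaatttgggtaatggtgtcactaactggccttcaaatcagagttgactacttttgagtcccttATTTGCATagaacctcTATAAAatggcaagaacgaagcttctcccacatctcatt

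The bait without histone partners held the same 3 motifs as the bait with the most, so these letters do not separate them. The shared promoter of HIST1H2AH and HIST1H2BK held 6 CCAAT boxes, 3 TATA boxes and 1 octamer, and that of HIST1H2AA and HIST1H2BA held 3, 2 and 1, counting matches that overlap on opposite strands separately. Over the 250 bases before the start of 60 human histone genes that code for protein, 85.0% had a CCAAT box, 66.7% a TATA box and 38.3% an octamer, against 33.1%, 10.1% and 1.56% of 20162 protein-coding genes. The octamer stood at 12 of 17 H2A, 10 of 15 H2B and 1 of 10 H3 promoters, and at 0 of 6 H1 and 0 of 12 H4 promoters. H4 promoters had the fewest CCAAT boxes, at 5 of 12, whereas all 6 H1 and all 10 H3 promoters had one. The 57 mouse histone promoters were alike: a CCAAT box stood at 86.0%, a TATA box at 49.1% and an octamer at 26.3%, against 35.0%, 12.3% and 1.62% of 22357 genes. Their octamers were at 7 of 16 H2A and 8 of 14 H2B promoters, with a CCAAT box at 3 of 10 H4 promoters. Divergent H2A and H2B genes share letters of these windows and are counted for each gene.

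Histone baits had many calls, and most of those in GM12878 reached other promoters. A GM12878 histone bait had a median of 33 calls, from 1 for HIST1H2APS2;SLC17A3 to 113 for HIST1H2AH;HIST1H2BK;MIR3143, against a median of 3 over all baits with a call. In mESCs the median was 20, from 1 to 96 for Hist1h2bl, also against 3. Of the GM12878 histone calls, 56.3% (53.9 to 58.7%) reached a baited fragment, where the background over all calls was 29.4%, and 52.9% (50.4 to 55.3%) reached another histone bait. Of the mESC histone calls, 47.4% (44.1 to 50.7%) reached a baited fragment against a background of 36.3%, and 34.2% (31.1 to 37.4%) reached another histone bait.

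**Figure D1:**
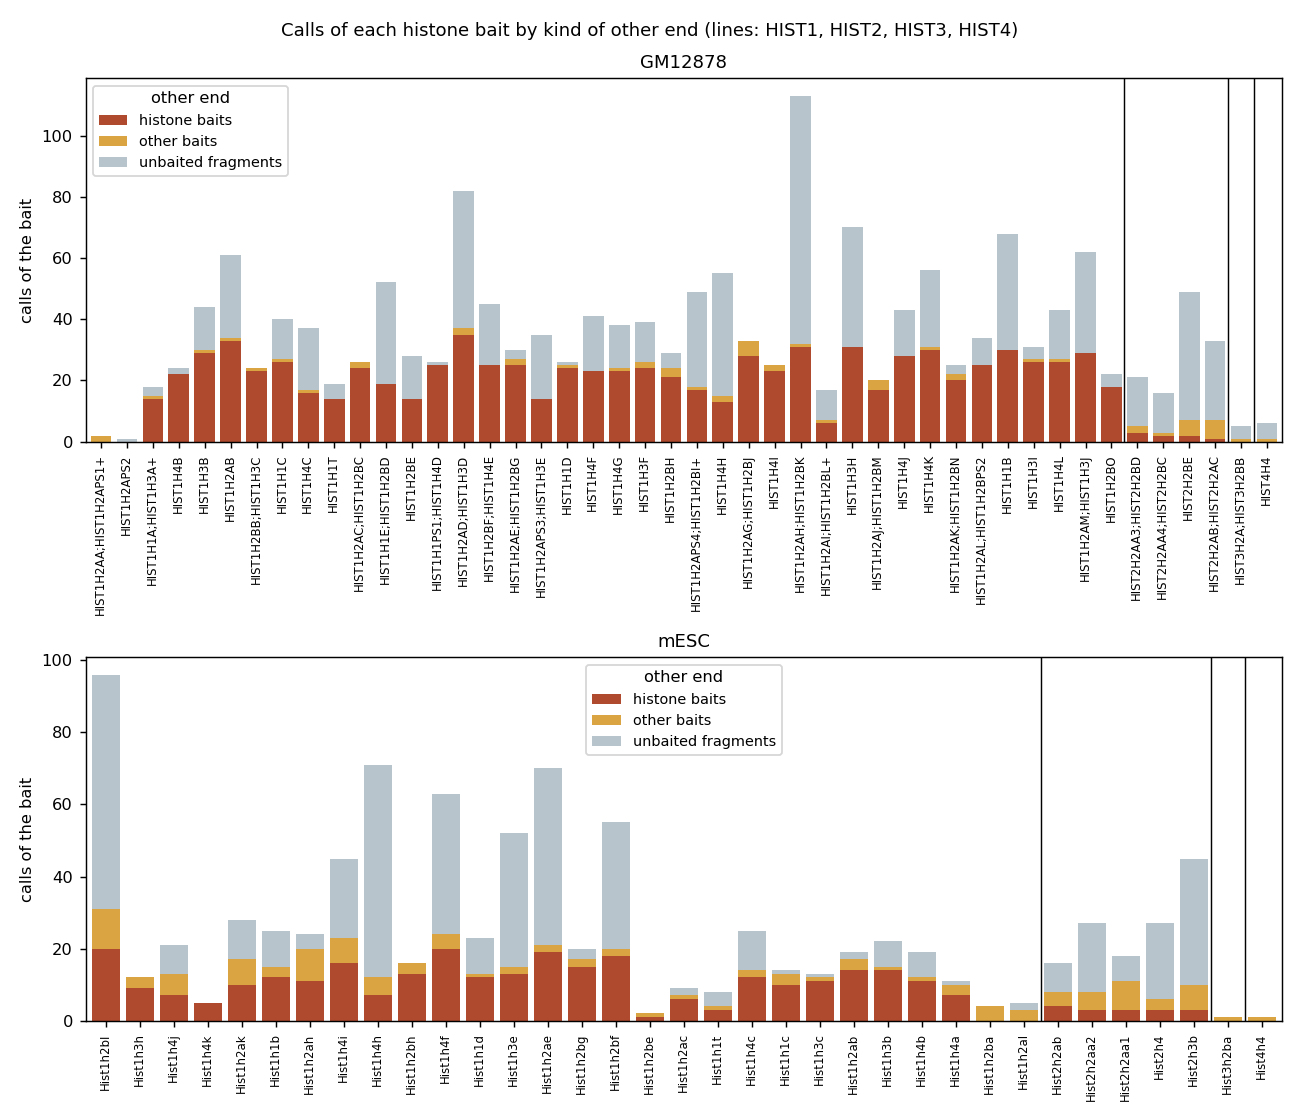
Calls of each histone bait, in chromosome order within HIST1, HIST2, HIST3 and HIST4 (vertical lines), with the stacked bars split by the kind of other end; a plus sign after a name stands for further genes on the bait. The HIST1H2AH bait with 113 calls and Hist1h2bl with 96 stand highest, and the HIST3 and HIST4 baits have 1 to 6 calls.

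Calls of histone baits also scored high and spanned long distances. A score of 10 or more was given to 47.9% (45.4 to 50.3%) of GM12878 histone calls against a background of 16.3%, and to 44.4% (41.1 to 47.7%) of mESC histone calls against 16.9%. The fragments lay over 1 Mb apart in 35.7% (33.4 to 38.0%) of GM12878 histone calls, against 1.64% of all calls, and in 28.7% (25.8 to 31.8%) of mESC histone calls against 3.37%. At least 1 call of over 1 Mb was made from 38 of 46 GM12878 histone baits, where the background was 3.5% of baits with a call, and from 25 of 35 mESC histone baits against a background of 6.68%. The median distance of histone calls was 684 kb in GM12878 and 174 kb in mESCs, against 174 kb and 139 kb over all calls. No histone call joined 2 chromosomes in either cell type. With 0 of 1663 and 0 of 912 calls, shares of up to 0.180% and 0.329% remain possible, and the lists held 288 and 579 calls between chromosomes in all.

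Contacts of each histone type were compared by the number of histone partners of a bait, meaning other histone baits joined to it by a call from either end. In GM12878, the 7 H1 baits of HIST1 had 14 to 35 partners with a median of 28, and the 15 H2A baits had 0 to 37 with a median of 28. The 16 H2B baits had 0 to 37 partners (median 25.5), the 10 H3 baits 22 to 36 (median 31.5) and the 13 H4 baits 8 to 34 (median 30). The ranges of all 5 types overlapped, and every listed H1 and H3 bait had histone partners. In mESCs the medians were 11.5 partners for H1, 12.5 for H2A, 14 for H2B, 14 for H3 and 13 for H4, within an overall range of 0 to 22. The share of GM12878 calls that reached a histone bait was 61.0% for baits with H1, 46.6% with H2A, 50.0% with H2B, 53.3% with H3 and 57.8% with H4. In mESCs it was 52.9% for H1 and between 30.6% and 34.7% for the other types. Unlike the partner counts, these shares cover the baits of all loci. No listed H1 bait of either cell type and no listed H3 bait of GM12878 lay outside HIST1. The human genes HIST2H3A, HIST2H3C, HIST2H3D and HIST3H3 start on fragments that are absent from the list. In GM12878, 56.8% of HIST1 calls but 6.72% of HIST2 calls reached a histone bait, so type and locus are mixed in these shares.

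HIST1H1B, which encodes the linker histone H1.5, had the most partners of the H1 baits in GM12878. It contacted 35 histone baits, with a highest score of 65.4 and its longest call at 1823 kb. HIST1H1T, the testis form of H1, had the fewest, with 14 partners, 19 calls and a highest score of 11.2. Among the 4 mESC baits named for H1, the same gene names were at both ends, with 14 partners for Hist1h1b and 7 for Hist1h1t. By annotated starts Hist1h1t was not the lowest. The annotation starts Hist1h1e on the Hist1h2be bait, with 2 partners, and Hist1h1a on the Hist1h4a bait, with 12. Hist1h1b made 25 calls and Hist1h1t made 8.

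The bait of HIST1H2AH and HIST1H2BK had 37 histone partners in GM12878, which are all other HIST1 baits except the 2 without any partner. Its 113 calls included 81 to unbaited fragments. In mESCs, Hist1h2ae led the H2A baits with 22 partners and 70 calls, and Hist1h2bl led the H2B baits with 21 partners and 96 calls. HIST1H2AD;HIST1H3D had the most partners of the GM12878 H3 baits, 36, in 82 calls, and HIST1H1A;HIST1H3A;HIST1H4A the fewest, 22, in 18 calls. Hist1h3e led the mESC H3 baits with 18 partners. Of the H4 baits, HIST1H4K had the most in GM12878, 34 partners in 56 calls, and Hist1h4f and Hist1h4i in mESCs, each with 21 partners, in 63 and 45 calls.

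A few histone baits had no histone partner. In GM12878 these were the testis pair HIST1H2AA;HIST1H2BA with 2 calls, HIST1H2APS2;SLC17A3 with 1 call, the HIST3 bait with 5 calls and the HIST4 bait with 6. The first 2 lie at the outer edge of sub-cluster 1 of chromosome 6. In mESCs they were Hist1h2ba, the mouse testis H2B gene, with 4 calls, Hist1h2al with 5, Hist3h2ba with 1 and Hist4h4 with 1.

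A histone pair was taken as any 2 histone baits on 1 chromosome. Of 790 such pairs in GM12878, 531 (67.2%, 63.8 to 70.5%) were called, and of 388 in mESCs, 182 (46.9%, 41.9 to 52.0%). Pairs of fragments that lie end to end count as possible in all shares of pairs. The paper's supplement recommends removing fragments adjacent to a bait, and under that setting end-to-end pairs could not be called. The shares within sub-clusters and at short distances were not recomputed without them. The HIST1 region was taken as the span of all sub-clusters with the gaps between them, without Hist1h2al in mESCs, and 500 kb beyond its outermost baits. In GM12878, 94 of 1480 pairs of a histone and another bait of this region (6.35%, 5.16 to 7.72%) were called. Of its pairs of other baits, 51 of 666 (7.66%, 5.75 to 9.95%) were called. The mESC shares were 49.6% for histone pairs, 6.72% (98 of 1458) for mixed pairs and 6.71% (96 of 1431) for other pairs. Among the other baits in mESCs is Gm17658, on which the annotation starts a histone gene, and its histone contacts raise the mixed share. Over all distances together, the mixed pairs were called about as often as the pairs without a histone bait in both cell types, and their intervals overlapped. In GM12878 this hid a difference at 1 class of distance. At 100 to 300 kb, 24 of 210 mixed pairs (11.4%) but 28 of 77 other pairs (36.4%) were called, and these intervals did not overlap. At 1500 to 2200 kb the order turned, with 14 of 339 mixed pairs (4.13%, 2.28 to 6.83%) and 0 of 142 other pairs (0 to 2.56%) called. The intervals overlapped there. In mESCs the intervals overlapped at both of these distances.

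**Figure D2:**
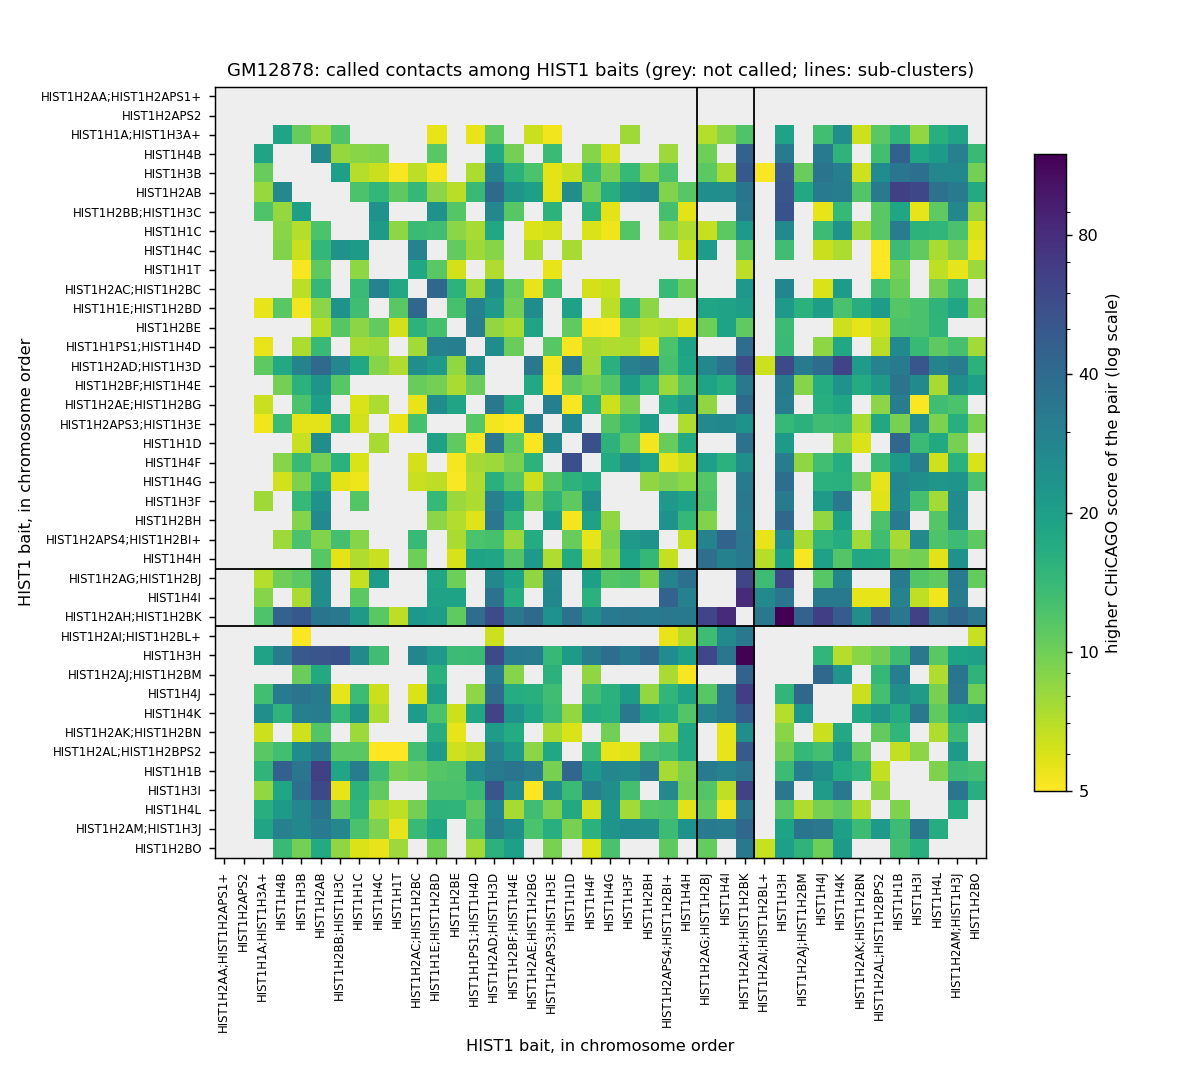
Score of every called pair of GM12878 HIST1 baits in chromosome order, on a log colour scale, with the higher score where both ends called it; grey cells were not called, black lines part the sub-clusters and a plus sign stands for further genes. Contacts fill the blocks between sub-clusters as well as those within them, and the first 2 baits have none.

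Contacts in GM12878 were frequent both within and between sub-clusters, and the order of the 2 shares depended on how the sub-clusters were parted. Of the HIST1 pairs, 228 of 369 within a sub-cluster (61.8%, 56.6 to 66.8%) and 299 of 411 between sub-clusters (72.8%, 68.2 to 77.0%) were called. Sub-clusters 1 and 3, whose pairs lie a median of 1652 kb apart, had 215 of 300 pairs called (71.7%). Sub-clusters 1 and 2 had 53 of 75 (70.7%) and sub-clusters 2 and 3 had 31 of 36 (86.1%). Within sub-clusters 1, 2 and 3, the counts were 182 of 300 (60.7%), 2 of 3 and 44 of 66 (66.7%). Without the testis pair and HIST1H2APS2, an alternative chosen after seeing the data, the shares were 70.8% within and 78.5% between sub-clusters. With runs parted at gaps of 100 kb the order turned round, with 228 of 322 pairs called within (70.8%, 65.5 to 75.7%) and 299 of 458 between (65.3%, 60.7 to 69.6%).

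In mESCs the share within sub-clusters was the higher. Of the pairs within a sub-cluster, 113 of 199 (56.8%, 49.6 to 63.8%) were called, against 61 of 152 between the sub-clusters (40.1%, 32.3 to 48.4%). Sub-cluster 1 had 19 of 28 pairs called (67.9%) and sub-cluster 2 had 94 of 171 (55.0%). The mouse contacts between sub-clusters spanned a median of 1805 kb and the human ones 1592 kb.

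**Figure D3:**
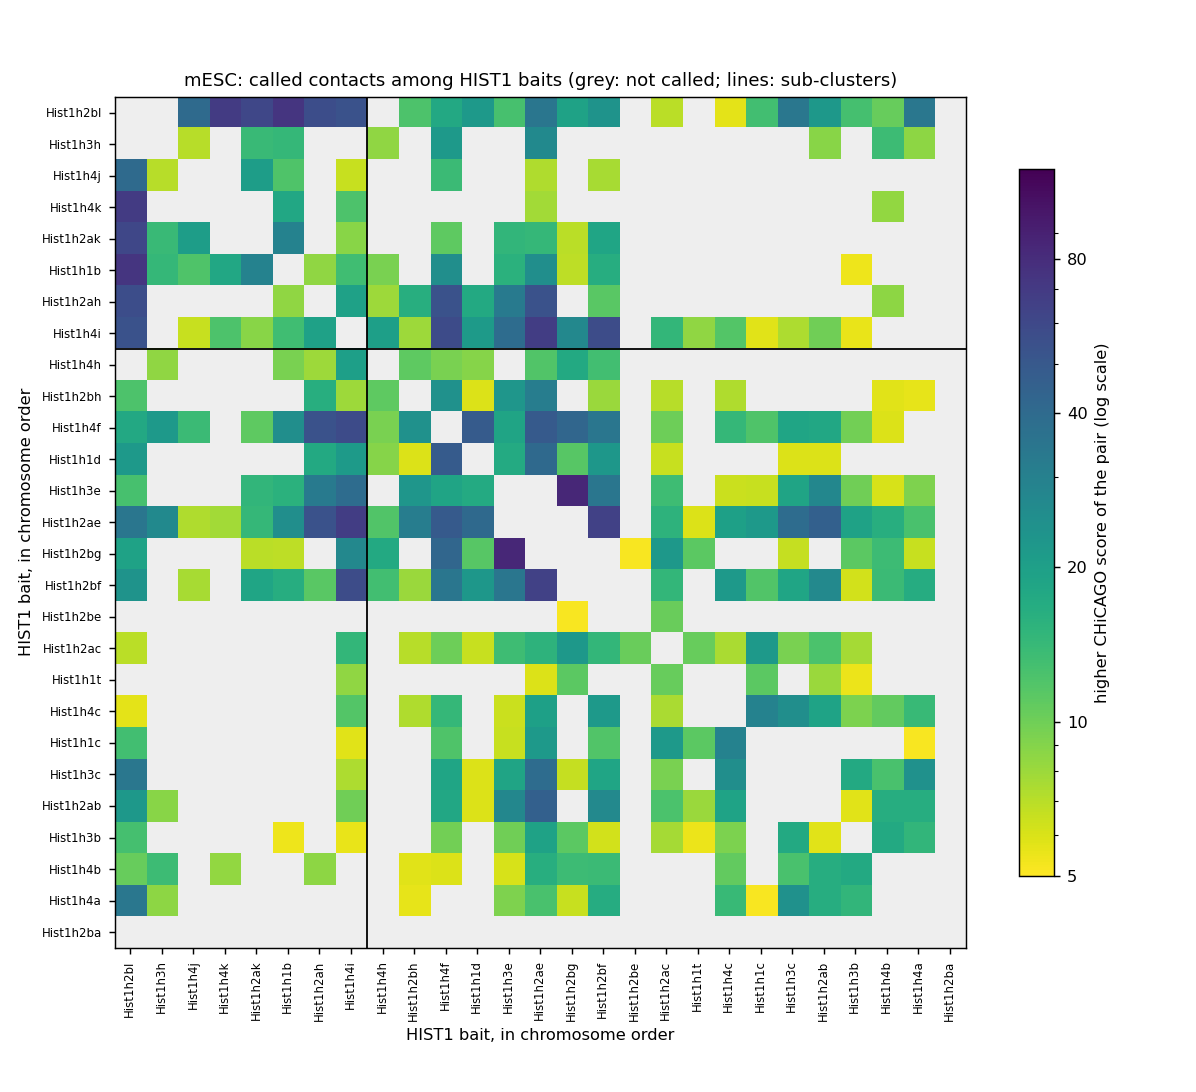
Score of every called pair of mESC HIST1 baits of sub-clusters 1 and 2, drawn as for GM12878 with the same log colour scale; grey cells were not called. Long rows of contacts run from Hist1h2bl, Hist1h4i, Hist1h4f and Hist1h2ae across the line between the sub-clusters, and Hist1h2ba has none.

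The share of histone pairs called in GM12878 was about as high at 1500 to 2200 kb as at 0 to 100 kb, and lower at 100 to 600 kb. At 0 to 100 kb, 75.9% of histone pairs were called, against 29.8% of pairs of all baits at this distance. At 100 to 300 kb the shares were 54.2% (71 of 131, 45.3 to 62.9%) and 22.2%. At 600 to 1000 kb the shares were 79.8% and 1.5%, and at 1500 to 2200 kb 71.3% (211 of 296, 65.8 to 76.4%) and 0.289%. None of the 32 histone pairs at 300 to 600 kb was called, and each of these had the testis pair or HIST1H2APS2 at one end. In mESCs the share of histone pairs was 68.3% at 0 to 100 kb, 52.7% at 100 to 300 kb and 39.9% (59 of 148, 31.9 to 48.2%) at 1500 to 2200 kb, against 32.6%, 20.3% and 0.179% of pairs of all baits. Mixed pairs of the HIST1 region at 1500 to 2200 kb were called in 4.13% of cases in GM12878 and 3.94% in mESCs.

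**Figure D4:**
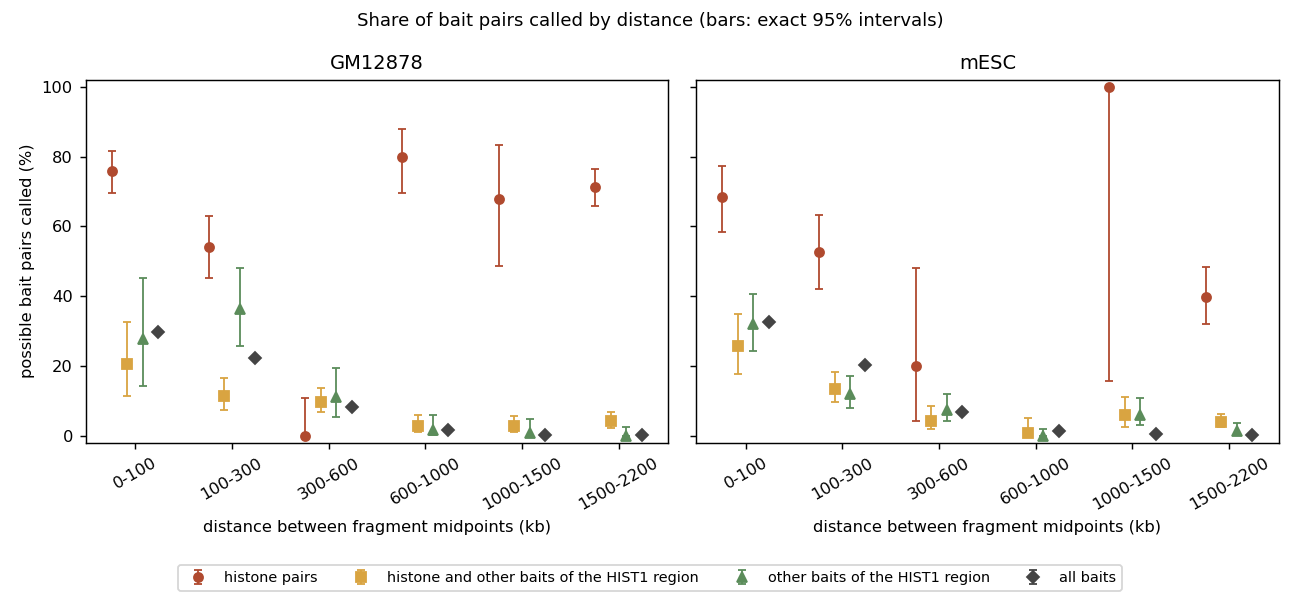
Percent of possible bait pairs called in 6 classes of distance between fragment midpoints, for histone pairs, for mixed pairs and other pairs of the HIST1 region, and for all baits; bars are exact 95% intervals. Histone pairs stand at 71.3% in GM12878 and 39.9% in mESCs at 1500 to 2200 kb, where all baits are below 1%; only 2 mESC pairs fall in the class of 1000 to 1500 kb.

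In GM12878, 232 of the 511 bait-to-bait pairs over 1 Mb on 1 chromosome (45.4%) were histone pairs, and in mESCs 61 of 1081 (5.64%). The contacts between sub-clusters rested on fewer reads than those within them but scored as high. In GM12878, pairs between sub-clusters had a median score of 16.8 and 12 reads, and pairs within them 11.5 and 30.5 reads. Other bait pairs at 800 to 2200 kb had a median score of 6.28 and 6 reads, and the highest of these 450 scored 20.4. In mESCs, pairs between sub-clusters had a median score of 13.7 and 6 reads, with 24 reads at most, and 944 other pairs at 800 to 2200 kb a median score of 6.54. Histone pairs were called from both ends in 65.5% of 531 cases in GM12878 and in 71.4% of 182 in mESCs, against 17.3% and 25.8% of bait pairs without a histone bait.

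The highest-scoring histone pair of GM12878 joined HIST1H2AH;HIST1H2BK to HIST1H3H, 665 kb away, with a score of 119 and 108 reads. The same bait reached HIST1H4I at 7.6 kb with a score of 80.8 and 115 reads. It reached HIST1H4J at 677 kb with a score of 66.6 and 44 reads, and HIST1H3I at 725 kb with 64.8 and 35 reads. HIST1H2AB and HIST1H1B, 1803 kb apart, scored 65.4 on 35 reads. Of these pairs, 4 of the 5 highest pairs had the HIST1H2AH bait at one end, and 4 of the 5 spanned sub-clusters. The longest pair, HIST1H1A;HIST1H3A;HIST1H4A with HIST1H2AM;HIST1H3J, spanned 1840 kb with a score of 18.8 on 12 reads. The next 4 in length all ran from HIST1H4B, HIST1H3B or HIST1H2AB to HIST1H2BO or HIST1H2AM;HIST1H3J, the last baits of sub-cluster 3. They spanned 1830 to 1834 kb with scores of 9.68 to 30.2 on 6 to 12 reads.

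In mESCs, Hist1h3e and Hist1h2bg, 10.6 kb apart, scored highest at 83.8 on 81 reads. Hist1h2bl scored 73.7 with Hist1h1b at 66.1 kb and 68.7 with Hist1h4k at 32.0 kb. Hist1h4i and Hist1h2ae scored 67.3 on 24 reads across 1527 kb, the only 1 of the 5 highest mESC pairs that spanned sub-clusters. Hist1h2ae and Hist1h2bf followed at 64.5, on the most reads of any histone pair, 211. The longest mESC pair joined Hist1h2bl and Hist1h4a across 2046 kb, with a score of 34.0 on 13 reads. The next 4 joined Hist1h2bl or Hist1h3h to Hist1h4a, Hist1h4b or Hist1h3b across 2035 to 2042 kb, with scores of 8.54 to 13.5 on 3 to 5 reads.

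Pairs of the same type and pairs of different types were called at similar shares, and their order in GM12878 depended on the setting. Baits that share a listed type formed 324 pairs in GM12878, of which 65.7% (60.3 to 70.9%) were called, against 68.2% (63.8 to 72.5%) of 466 pairs that share none. Between sub-clusters the shares were 70.1% and 74.7%, and within them 61.7% and 61.8%. Over baits that carry 1 type only, the order turned, with 40 of 52 same-type pairs called (76.9%, 63.2 to 87.5%) and 121 of 180 different-type pairs (67.2%, 59.8 to 74.0%). At a score of 10 or more the shares were 47.8% and 45.3%. In mESCs, 38.4% (27.2 to 50.5%) of 73 same-type pairs and 48.9% (43.2 to 54.6%) of 315 different-type pairs were called. The intervals overlapped in each of these comparisons.

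**Figure D5:**
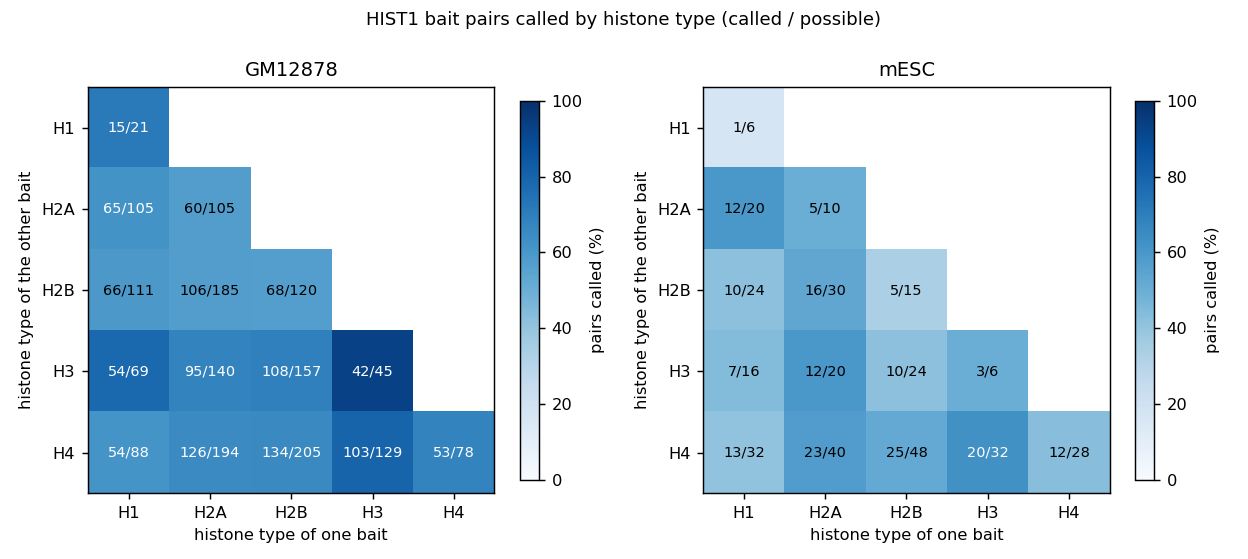
Percent of HIST1 bait pairs called for each combination of histone types, with the number called over the number possible in each cell; a bait with several types counts under each. H3 with H3 is darkest in GM12878 (42 of 45), and H1 with H1 is palest in mESCs (1 of 6).

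The 3 highest shares of the GM12878 HIST1 type combinations all involved H3 baits. Among themselves 42 of 45 pairs were called (93.3%, 81.7 to 98.6%), with H4 baits 103 of 129 (79.8%, 71.9 to 86.4%) and with H1 baits 54 of 69 (78.3%, 66.7 to 87.3%). The lowest were H2B with H2B at 68 of 120 (56.7%, 47.3 to 65.7%), H2A with H2A at 60 of 105 (57.1%) and H2A with H2B at 106 of 185 (57.3%). Both baits without histone partners carried H2A genes and 1 of them H2B genes, and no H1, H3 or H4 gene stood on them. Without these baits, H2A pairs were called at 76.9%, H2A with H2B at 70.7% and H2B pairs at 64.8%, while H3 pairs remained at 93.3%. Over baits that carry 1 listed type only, all 6 H3 pairs and 29 of 36 H4 pairs (80.6%) were called. The annotation starts HIST1H3B on the HIST1H2AB bait and no histone gene on the bait listed as HIST1H3B. By annotated starts, 41 of 45 H3 pairs (91.1%, 78.8 to 97.5%) were called.

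In mESCs fewer pairs were available, and the place of pairs among H3 baits depended on how the types were assigned. By the listed types, H3 with H4 had 20 of 32 pairs called (62.5%), H1 with H2A and H2A with H3 each had 12 of 20 (60.0%), H4 with H4 had 12 of 28 (42.9%), H2B with H2B 5 of 15 and H3 with H3 3 of 6. The single H1 pair called of 6 joined Hist1h1t and Hist1h1c at 44.3 kb, with a score of 11.1 on 12 reads. Because the mouse list names 1 gene per bait, the types were also taken from all genes that the annotation starts on each bait. By these types, 22 of 36 H3 pairs (61.1%), 31 of 55 H2A pairs (56.4%) and 2 of 15 H1 pairs (13.3%) were called, and same-type and different-type pairs stood at 45.6% and 47.9%. H3 with H3 then had the highest share of the 15 combinations, just above H3 with H4 at 41 of 69 (59.4%, 46.9 to 71.1%), and their intervals overlapped.

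Of the HIST1 gene names, 28 were listed in both cell types. More histone partners were called from the GM12878 bait in 26 of them, from the mESC bait in 1 and from both equally in 1. The exception was HIST1H2BL, with 6 partners called in GM12878 and 20 in mESCs. HIST1H2BA had 0 in both. These are counts and not shares of the possible partners, which were more in GM12878, with 40 HIST1 baits against 28 in mESCs. A human bait with several of these names, such as HIST1H2AE;HIST1H2BG, is counted for each name. Equal names do not make the fragments alike: HIST1H2BL stood on 5899 bp in GM12878 and on 2128 bp in mESCs.

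The HIST2 baits contacted each other and their neighbours. In GM12878, 4 of 6 HIST2 pairs were called (22.3 to 95.7%), and the strongest joined HIST2H2AA3;HIST2H2BD to HIST2H2BE with a score of 29.6 on 67 reads across 39.1 kb. Of the pairs not called, HIST2H2BE with BOLA1;HIST2H2AB;HIST2H2AC joins fragments that lie end to end. The near-identical copies HIST2H2AA3 and HIST2H2AA4, 8.6 kb apart, scored 26.3 on 79 reads, and reads of such copies may not be separable. HIST2H2AA4;HIST2H2BC and HIST2H2BE scored 22.1 on 61 reads. HIST2H2BE scored highest with VPS45, a gene of vesicle transport 186 kb away, at 30.6 on 51 reads, and VPS45 was called by all 4 HIST2 baits. In the HIST2 region 30.8% of 52 mixed pairs and 44.9% of 78 other pairs were called, both within the interval of the HIST2 pairs. The 4 baits had 16 to 49 calls, none over 1 Mb.

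In mESCs, 8 of 10 HIST2 pairs were called (44.4 to 97.5%). The pairs not called, Hist2h2aa2 with Hist2h2aa1 and Hist2h4 with Hist2h3b, join fragments that lie end to end. The strongest pair joined Hist2h2aa2 to Hist2h4, 25.4 kb away, with a score of 26.7 on 96 reads, followed by Hist2h2aa1 with Hist2h4 at 23.4 on 85 reads. Hist2h2aa2 and Hist2h2aa1 align over 2115 bp at 99.5% identity, so reads of these copies may not be separable either. Hist2h3b had the most calls of the group, 45, with its highest score of 30.9 at an unbaited fragment 58.0 kb away. Mixed pairs of the HIST2 region were called in 24.8% of 165 cases and other pairs in 14.8% of 528.

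The HIST3 and HIST4 baits had few calls, none of them to a histone bait. The GM12878 HIST3 bait, with HIST3H2A and HIST3H2BB, made 5 calls, and its best was to the C1orf145 promoter 243 kb away, with a score of 11.6 on 30 reads. HIST4H4 made 6 calls with a highest score of 10.7. In mESCs, Hist3h2ba made 1 call, to Wnt9a at 355 kb with a score of 7.33 on 8 reads. Hist4h4 made 1 call, to Strap at 935 kb with 5.25 on 3 reads.

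Promoters of other genes took few of the calls of histone baits. They were the other end of 57 of the 1663 GM12878 histone calls, at 23 baits, and of 120 of the 912 mESC calls, at 42 baits. Counting calls from either end, HFE, which encodes a regulator of iron uptake and lies inside sub-cluster 1, was in contact with 19 of 40 HIST1 baits in GM12878 (47.5%, 31.5 to 63.9%). HMGN4, which encodes a nucleosome-binding protein, was in contact with 13 (32.5%), and ABT1, an activator of basal transcription, with 9 (22.5%). RNU7-26P, named as a pseudogene of the U7 RNA that processes histone mRNA, has the fragment next to HIST1H2BO and was in contact with 9. In mESCs, Abt1 was in contact with 15 of 27 HIST1 baits (55.6%, 35.3 to 74.5%), with scores up to 56.2, and Hfe with 4 (14.8%). AL589651.1 was in contact with 7 histone baits, Zfp184 with 6 and the butyrophilin gene Btn2a2 with 4. The bait listed as Gm17658 was in contact with 23 histone baits, and the annotation starts Hist1h4d on it, so that it is a histone bait under another name. Its contacts are part of the mESC share of mixed pairs.

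Gene families that lie between the histone genes were set beside the share over all mixed pairs of the HIST1 region, 6.35% in GM12878 and 6.72% in mESCs. In GM12878, 5 of 161 possible pairs with butyrophilins (3.11%), which regulate T cells, were called, 3 of 120 with the SLC17A phosphate transporters (2.50%), 11 of 360 with zinc finger genes (3.06%), 1 of 80 with olfactory receptors (1.25%), 1 of 40 with POM121L2 (2.50%) and 0 of 40 with PRSS16 (0 to 8.81%). In mESCs, 7 of 54 pairs with butyrophilins (5.37 to 24.9%), 16 of 190 with zinc finger genes (8.42%, 4.89 to 13.3%), 3 of 27 with Prss16 (11.1%), 4 of 27 with Pom121l2 (14.8%) and 1 of 108 with the Slc17a genes (0.926%) were called. None of 243 pairs with Vmn1r vomeronasal receptors (0 to 1.51%) or of 227 with olfactory receptors (0 to 1.61%) was called, and a bait of these receptors had a median of 1 and 2 calls of any kind.

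Genes that act on histone genes elsewhere in the genome were not in contact with them. A list of genes for histone mRNA transcription and processing had 12 genes on 13 baits in GM12878, with a median of 4 calls a bait and 0 histone partners. ATM;NPAT made 4 calls, the longest of 438 kb and the highest scoring 12.4, and HINFP, an activator of H4 genes, made 10. In mESCs the list had 11 genes on 11 baits. Casp8ap2, which acts in histone mRNA processing, made 5 calls with a highest score of 21.8, and Slbp, the stem-loop binding protein, made 1 call at 5.31. The replication-independent histones, with 8 genes in GM12878 and 7 in mESCs, and the histone chaperones, with 10 and 6, had 0 histone partners as well. None of these baits but one in each cell type lies within 500 kb of a histone bait, so that a contact would nearly always have needed a call at long range or between chromosomes.

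Unbaited fragments took 727 GM12878 histone calls at 197 fragments and 480 mESC calls at 177. Most of these calls stayed among the histone genes: 407 of 727 in GM12878 (56.0%, 52.3 to 59.6%) and 289 of 480 in mESCs (60.2%, 55.7 to 64.6%) reached fragments between the outermost baits of a HIST1 sub-cluster or of HIST2. These lay on 58 and 79 fragments. The fragment contacted by the most GM12878 histone baits, 23, was chr6:27107453-27111875 (hg19), which begins where the HIST1H4I bait ends. It was followed by chr6:27786656-27789605 with 19 baits and chr6:26205859-26207691 with 18. The fragments chr6:26267467-26271041 and chr6:26217489-26221235 followed with 17 each, and all 5 were called from all 3 sub-clusters. In mESCs, chr13:23676241-23678113 (mm9) was contacted by 15 histone baits, and chr13:21878616-21881804, which holds the starts of Hist1h2an and Hist1h2bp, by 12. A further 12 contacted chr13:23835021-23836751, 11 chr13:23668163-23672098 and 9 chr13:22130074-22132678, and all 5 were called from both sub-clusters. Of the unbaited GM12878 contacts over 600 kb, 229 of 351 fell inside these spans, and in mESCs 107 of 128. The HIST1 and HIST2 baits lie in these spans themselves, and the same shares were not computed for other baits.

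Some histone baits made calls to other baits only. In GM12878, HIST1H4I with 25 calls, HIST1H2AG;HIST1H2BJ with 33, HIST1H2AC;HIST1H2BC with 26, HIST1H2BB;HIST1H3C with 24 and HIST1H2AJ;HIST1H2BM with 20 had no unbaited other end. These are 5 of the 42 histone baits with at least 10 calls (11.9%, 3.98 to 25.6%), against 6.71% of 2711 baits with at least 10 calls, a share within the interval. In mESCs they were Hist1h3h and Hist1h2bh, 2 of 27 (7.41%) against 5.77% of 3068. The rank correlation of fragment length with histone partners, over HIST1 baits with a partner, was -0.21 in GM12878 (38 baits) and -0.42 in mESCs (26 baits), given as a description of baits that share the same libraries.

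Histone genes resemble each other in sequence, and the call shares were set beside this. Baits were taken to share sequence where blastn found an alignment of at least 100 bp at 90% identity. In GM12878, 43 of 64 HIST1 pairs that share sequence (67.2%, 54.3 to 78.4%) and 484 of 716 that do not (67.6%, 64.0 to 71.0%) were called. In mESCs these were 69 of 119 (58.0%, 48.6 to 67.0%) and 105 of 232 (45.3%, 38.7 to 51.9%). Histone baits on different chromosomes shared sequence in 13 pairs of GM12878 and 65 of mESC, none of which was called.

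The histone contacts were set beside those of other gene clusters over pairs up to 3 Mb apart. In GM12878, 5 of 154 pairs of HOX baits (3.25%), 284 of 630 pairs of protocadherin baits (45.1%) and 92 of 507 pairs of keratin baits (18.1%) were called, against 67.6% of 786 histone pairs and 4.88% of pairs of all baits. In mESCs these were 120 of 127 for Hox (94.5%), 92 of 190 for protocadherins (48.4%), 109 of 556 for keratins (19.6%) and 50.4% of 361 histone pairs. All pairs of Hox and protocadherin baits lay under 1000 kb apart, so the long distances are not compared. At 0 to 100 kb the shares in GM12878 were 75.9% for histone, 56.6% for protocadherin, 19.5% for keratin and 3.52% for HOX pairs. In mESCs they were 68.3%, 42.9%, 15.2% and 94.2%.

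A Hi-C library of the mouse ES cells, made without capture, gave a second readout of the mouse genes. The paper describes these Hi-C data as pre-capture, and whether they are independent of the CHi-C libraries was not tested. The Hi-C bin pairs are 25 kb wide for shorter and 1 Mb wide for longer distances. They carry a false discovery rate (FDR), and those with an FDR under 0.05 were counted. Of 199 mESC HIST1 histone pairs under 1 Mb apart, 83 (41.7%, 34.8 to 48.9%) lay in such a bin pair, against 28 of 662 mixed pairs (4.23%) and 5 of 737 other pairs (0.678%). These sets were not matched for distance, and the histone pairs lay closer together. At 300 to 600 kb there were 15 histone, 184 mixed and 200 other pairs. At 600 to 1000 kb there were 0 histone, 110 mixed and 202 other pairs. Whether the shares differ at equal distance was not tested. The 83 pairs fell in only 10 bin pairs. Among histone pairs called in CHi-C, 66 of 113 (58.4%, 48.8 to 67.6%) lay in one, and 17 of 86 (19.8%, 12.0 to 29.7%) among those not called. Called and uncalled pairs were not matched for distance either, and the uncalled ones include every pair with Hist1h2ba. The highest ratio was 45 read pairs where 6.68 were expected, over bins that hold 15 histone pairs of sub-cluster 2. Another bin pair, within sub-cluster 1, had 31 read pairs against 4.94 expected.

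Between the mouse sub-clusters, 144 of 152 histone pairs (94.7%) lay in 1 of 2 such bin pairs of 1 Mb, with 1329 read pairs against 644.9 expected and 3056 against 1765.3. The same 2 bin pairs held 700 of 796 mixed pairs (87.9%) and 397 of 690 other pairs (57.5%), so that at this width histone and other promoters could not be separated. Of the 18 pairs of histone bins on different chromosomes, 2 were listed. HIST1 sub-cluster 2 and HIST2 had 34 read pairs against 14.4 expected, with an FDR of 0.00175, and 1 of the HIST1 bins of sub-cluster 1 and HIST3 had 30 against 15.4 (FDR 0.0681). The bins also hold other genes, and CHi-C called 0 contacts between these loci. Genome-wide, 10899 bin pairs on different chromosomes were listed, and 7060 of them had an FDR under 0.05. Their share of all possible bin pairs was not computed, so the 2 of 18 has no background beside it.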

How the data were processed

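The authors made the files as follows. Reads were mapped to hg19 or mm9 with HiCUP, which runs Bowtie (version 1.1.0 per the labels), and all replicates of a cell type were called together with CHiCAGO. The deposited score is a soft-thresholded minus log weighted p-value, called at 5 or more, and the deposited read count of a call is a rounded weighted mean over replicates. For the Hi-C library, the authors ran HOMER 4.7. Its deposited files give, per bin pair, the count of read pairs, the expected signal and p-values with FDR.

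From these, calls were grouped by gene symbol, and every pair of baits on 1 chromosome was counted as called or not, with distances between fragment midpoints. Regions extended 500 kb beyond the outermost baits. Exact Clopper-Pearson 95% intervals were computed. Promoter starts came from GENCODE annotation on hg19 and mm9, and fragments were aligned with blastn 2.17.0. Python 3.11.15, numpy 2.4.6, scipy 1.17.1 and matplotlib 3.10.9 were used. The counting steps were tested on simulated data, where 10 of 10 checks gave the known answer. Named baits were those with the most and fewest histone partners of each type, all baits of HIST2, HIST3 and HIST4, the 5 highest-scoring and 5 longest pairs, the 5 other baits and 5 unbaited fragments with the most histone baits, and regulators of histone genes. Other neighbouring genes came from fixed lists. Other settings tried were the browser list with each pair given once, a score of 10, other gaps and region widths, baits with only histone symbols or 1 type, and annotated types. The members and gene lists were chosen with earlier results of these data known. Protein identity between members was planned and not analysed here.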

Additional observations from a re-analysis of the deposited data

How the results depend on the processing

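Of 100 values recomputed under other settings, 66 stayed within the interval of the main value, or within 1.5 times of a count, and 34 moved beyond it. The order of 2 GM12878 comparisons turned with the setting, that within against between sub-clusters at gaps of 100 kb, and that of same-type against different-type pairs with a score of 10 and with 1 type per bait. With a score of at least 10, histone calls numbered 796 in GM12878 and 405 in mESCs, their median distance in GM12878 was 883 kb, and the share that reached a histone bait was 71.0% and 49.4%. With this score the shares of histone pairs called were 46.3% and 32.7%, within sub-clusters 36.3% and 39.7%, between them 55.7% and 26.3%, of the same type in GM12878 47.8%, of different types 45.3% and 33.3%, and of mixed pairs 1.22% and 2.88%. With each pair given once, as in the browser list, 41.0% and 24.1% of histone calls reached a histone bait and the GM12878 median distance was 621 kb. With baits that carry histone symbols only, 49.5% of GM12878 calls did so and 12.7% of mixed pairs were called, since baits with a further gene then count as other baits. With 1 type per bait, 76.9% of same-type and 67.2% of different-type GM12878 pairs were called. With sub-clusters parted at gaps of 100 kb, 70.8% were called within and 65.3% between them in GM12878, as the outlying baits then form sub-clusters of their own. Regions of 100 kb gave 8.80% and 8.61% of mixed pairs and a region of 1 Mb gave 5.42% in mESCs. Leaving out the outlying baits, which was chosen after seeing the data, gave 74.5% and 54.3% of histone pairs, and in GM12878 70.8% within and 78.5% between sub-clusters. Counting every listed Hi-C bin pair gave 61.3% under 1 Mb.

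Leaving out a replicate was not run, because the calls were made on all replicates together. No paired analysis was possible because the values come from no test. Contacts between sub-clusters rest on few reads, down to 3.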
